A study of Mus musculus with 10 samples.

Results

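The genes encoding the proteins of the cytosolic ribosome were measured in mouse liver with a single intact copy of Tgfbr2, a receptor of transforming growth factor beta. They were taken by symbol as Rpl or Rps followed by a number, or by p0, p1, p2 or a. The kinases named Rps6k, pseudogenes with names ending in -ps and the mitochondrial families Mrpl and Mrps were left out. This gave 64 of the 16383 genes measured, on 93 probes. By the letters of the symbol alone, 42 were counted to the large subunit and 21 to the small one. The letters of the rule also took in Rps19bp1, which encodes a binding partner of Rps19 and not a ribosomal protein. RefSeq lists 89 protein-coding mouse symbols that fit the letters, of which 63 were measured. The remaining member, Rpl6l, is a pseudogene in RefSeq and was counted to the large subunit by its letters. Among the genes without a probe used here were Rplp1 and Rps27a.

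Total liver RNA came from 6 male heterozygous knockout mice, written Tgfbr2+/- here, and from 4 wild-type littermates, all on chow. Each mouse's RNA was hybridised on a 2-colour oligonucleotide array against a wild-type pool, made of liver RNA from 6 mice, and 1 column of ratios per mouse was analysed. The sex of the wild-type mice, the strain, the age, the construct of the knockout allele and whether the pool held any of the 4 wild-type mice are not given in the sources used here. Values are log2 ratios to the pool, so 0 means equal signal, and the precision is limited by the number of arrays.

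The direction of the ratios was inferred and is likely mouse over pool. With the opposite direction in all columns each sign given here would turn. Over all probes wild-type replicate 1 and Tgfbr2+/- replicate 5 correlated at r = -0.32, so the direction of either column is not settled. The differences of the members with their counts and median, the library counts, the first component and Tgfbr2 were repeated with each of them turned. The subunit and tract splits, the single-probe differences, the second component and the count without paralogue-like members were not. Nor were the other gene lists. The targeted gene, Tgfbr2, averaged over its probes, was at 0.23, 0.37, -0.07 and 0.08 in wild-type replicates 1 to 4. In Tgfbr2+/- replicates 1 to 6 it was at -0.43, -0.50, -0.38, 0.05, -0.49 and -0.18. The mean difference was -0.47 ± 0.12 (SE, limma; exact two-sided permutation p = 0.0143 over 210 assignments, smallest possible p 0.0048). With the sign of Tgfbr2+/- replicate 5 turned the difference was -0.31 ± 0.18 (SE), and with that of wild-type replicate 1 turned it was -0.36 ± 0.13 (SE). Tgfbr2+/- replicate 4 lay within the wild-type range. Of its probes 1 was at -0.88 (exact permutation p = 0.0286), and the other at -0.07 (exact permutation p = 0.457). Because ratios to a liver pool carry no absolute level, the presence or absence of hepatocyte or other markers cannot be read from them.

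Ribosomal proteins are made in near-equal amounts and assembled with ribosomal RNA in the nucleolus into a small subunit, which decodes mRNA, and a large subunit, which joins amino acids. Their mRNAs are long-lived, abundant in liver and belong to the TOP class, whose first base is a C followed by a run of C and T. This tract lets the mTORC1 kinase pathway set how strongly they are translated. Regulation of this kind acts on translation and need not alter mRNA amounts, which are what the arrays measured.

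The start regions of 8 members with contrasting values are printed here, from 60 bases before to 20 bases after the start annotated by RefSeq on mouse build GRCm38.p6, in the direction of the gene. They hold the end of each promoter and the first bases of the transcript, and were chosen after the values had been seen. Capitals mark a pyrimidine tract, defined as a C with at least 4 more C or T, that begins within 20 bases of the start. In the columns as deposited Rpl26, Rps9 and Rpl31 had 3 of the 4 lowest differences between the groups and Rps6 had the highest. With Tgfbr2+/- replicate 5 turned in sign those of Rpl26, Rps9 and Rpl31 were -0.0015, -0.03 and -0.0040, so their place at the low end depends on that column. Rplp0, Rplp2 and Rpsa were highest in Tgfbr2+/- replicate 5, where Rpl26, Rps9 and Rpl31 were lowest, and Rps18 varied least of all.
Rpl26: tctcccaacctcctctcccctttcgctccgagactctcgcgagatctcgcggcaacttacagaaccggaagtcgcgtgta
Rps9: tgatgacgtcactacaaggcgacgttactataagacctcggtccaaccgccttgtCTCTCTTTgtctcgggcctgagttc
Rpl31: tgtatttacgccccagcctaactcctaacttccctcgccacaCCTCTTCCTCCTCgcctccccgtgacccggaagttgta
Rplp0: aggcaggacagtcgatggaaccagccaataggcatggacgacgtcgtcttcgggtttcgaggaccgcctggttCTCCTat
Rplp2: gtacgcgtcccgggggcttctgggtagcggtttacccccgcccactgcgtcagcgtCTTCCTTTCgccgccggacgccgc
Rpsa: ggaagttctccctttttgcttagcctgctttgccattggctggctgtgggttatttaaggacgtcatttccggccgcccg
Rps6: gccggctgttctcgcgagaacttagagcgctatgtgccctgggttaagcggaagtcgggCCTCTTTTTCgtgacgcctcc
Rps18: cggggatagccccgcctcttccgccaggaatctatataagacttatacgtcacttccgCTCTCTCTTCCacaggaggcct

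These windows lie at chr11:68901506-68901585 (Rpl26), chr7:3703981-3704060 (Rps9), chr1:39367791-39367870 (Rpl31), chr5:115559407-115559486 (Rplp0), chr7:141447591-141447670 (Rplp2) and chr9:120127706-120127785 (Rpsa), all on the plus strand. Those of Rps6, chr4:86857348-86857427, and Rps18, chr17:33955646-33955725, are on the minus strand. The tract of Rps6 was 10 bases long, that of Rps18 11, that of Rps9 8 and that of Rplp2 9, each beginning 1 to 5 bases before the annotated start. The longest of the 8, with 13 bases, was that of Rpl31, which began 18 bases before the annotated start and ended before it. That of Rplp0, 5 bases long, began at base 14 of the annotated transcript. Neither covers the annotated first base, so neither is a TOP tract at this start. The tract of Rps9 covers that base, but the base is a T and not a C, so it is no TOP tract there either. Rpl26 and Rpsa had none by the definition used for the capitals, at the annotated start used here. So genes with and without a marked tract were found among those of low and of high difference in the columns as deposited.

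RefSeq start regions were found for 53 of the 64 members, with 61 starts in all. The tract was present at 46 of these starts (75.4%), against 47.9% of the 21263 starts of all protein-coding RefSeq genes, measured here or not. The run CTTTCC, 1 form of that tract, began in the same place at 7 member starts, 11.5% against 2.13% of all, and all 7 also held the tract. Over the 300 bases from 250 before to 50 after the start, on both strands, the ETS-type motif CCGGAAG was found at 22 member starts, or 36.1%, against 11.6% of all. TATAAA was found at 5, or 8.20%, against 12.6% of all, and the YY1-type motif AAGATGG at 8, or 13.1%, against 6.24%. These matches describe letters and not bound sites. The 43 members with a tract had a median difference between the groups of -0.04 and the 10 without one of -0.0011.

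Within single livers the ribosomal protein genes stayed close to the pool. Of the 640 values, 639 lay within 0.5 of 0 on the log2 scale, and the exception was Rpl26 in Tgfbr2+/- replicate 5. All genes were also mostly close to 0, with quartiles at -0.10 and 0.11 in Tgfbr2+/- replicate 5, the widest library. The SD over the 10 livers had a median of 0.10 for the members and 0.11 for all genes. Of the 64 members, 35 lay below the median of all genes. The share of all genes within 0.5 of 0 was not counted. The median of the 64 members was 0.02, -0.02, 0.03 and 0.10 in wild-type replicates 1 to 4. It was 0.08, 0.0076, 0.04, 0.05, -0.05 and -0.09 in Tgfbr2+/- replicates 1 to 6. The groups overlapped, with library medians averaging 0.03 ± 0.05 (SD, n = 4) in wild type and 0.0059 ± 0.06 (SD, n = 6) in Tgfbr2+/-.

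**Figure D1:**
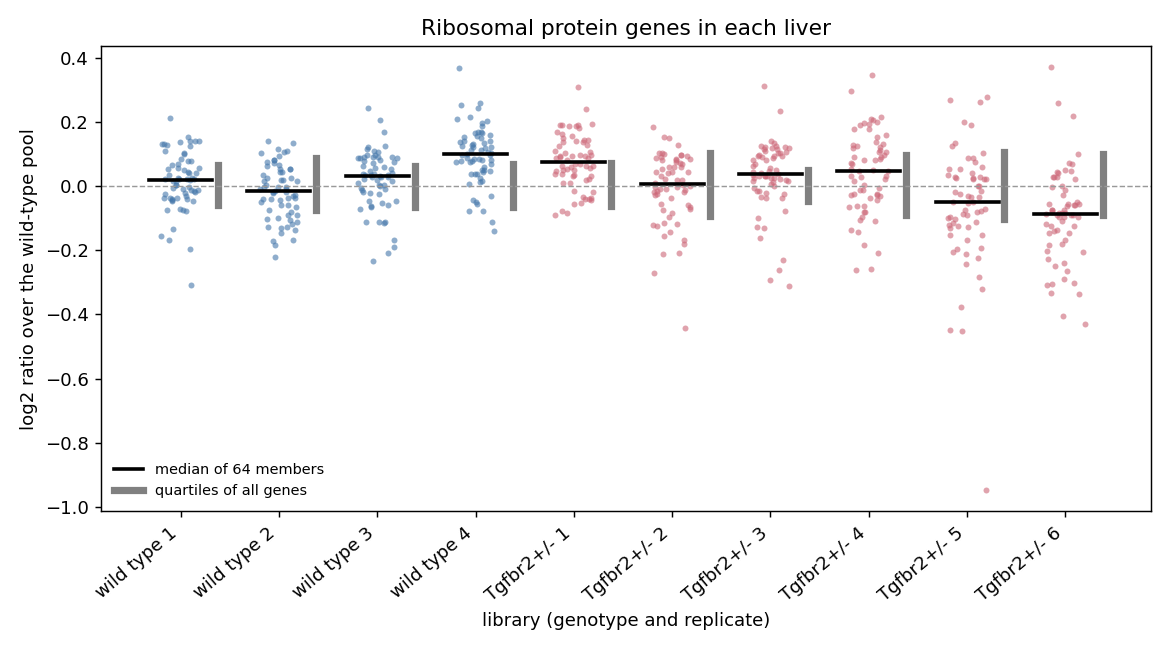
Each point is the log2 ratio over the wild-type pool (vertical axis) of 1 of the 64 ribosomal protein genes in 1 liver (horizontal axis, genotype and replicate), with the members' median as a black line and the quartiles of all genes as a grey bar. Wild-type replicate 4 has the highest median, 0.10, and Tgfbr2+/- replicates 5 and 6 the lowest, -0.05 and -0.09, and the single point near -0.95 is Rpl26.

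Individual livers stood apart more than genotypes did. In wild-type replicate 4, 56 of the 64 members were above the pool, and in Tgfbr2+/- replicate 1 it was 52. In Tgfbr2+/- replicate 6 the number was 15, and in Tgfbr2+/- replicate 5 it was 25. The share of all genes above the pool lay between 51.4% and 55.6% in every library, so these counts were not those of the whole array. Of the 10 livers, wild-type replicate 4 gave the highest value for 21 members (32.8%, against 5.80% of all genes) and the lowest for none. Tgfbr2+/- replicate 6 gave the lowest value for 26 members (40.6%, against 15.6% of all genes). Tgfbr2+/- replicate 5 was lowest for 17 (26.6%, against 18.3% of all genes) and highest for 8 (12.5%, against 17.0%). With its sign turned it was lowest for 10 and highest for 14, replicate 6 was lowest for 30 and wild-type replicate 4 highest for 18. In Tgfbr2+/- replicate 6 both subunits had their lowest median, -0.08 for the large and -0.09 for the small one. The highest median of the large subunit was that of wild-type replicate 4, 0.11, and that of the small subunit was in Tgfbr2+/- replicate 1, 0.09, next to 0.09 in wild-type replicate 4.

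The members also moved together from liver to liver. Over the 2016 pairs of members the correlation across the 10 livers had a median of 0.30 and a mean of 0.25, against a mean of 0.0033 over pairs of all genes, and 74.0% of member pairs were above 0. These values describe 10 arrays that share 1 pool. The range was from -0.83 to 0.96, so some members opposed the others. The first principal component of the members held 42.0% of their variance and set Tgfbr2+/- replicates 5 (0.68) and 6 (0.43) against wild-type replicate 4 (-0.35) and Tgfbr2+/- replicates 1 (-0.33) and 4 (-0.27). With replicate 5 turned in sign the component held 38.6% and that liver moved to the other end (-0.43), while replicate 6 (0.72) still opposed wild-type replicate 4 (-0.28). The median correlation over pairs was then again 0.30. In the columns as deposited the second component held 24.2% and parted replicate 6 (0.64) from replicate 5 (-0.55). Neither of these components separated the genotypes.

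**Figure D2:**
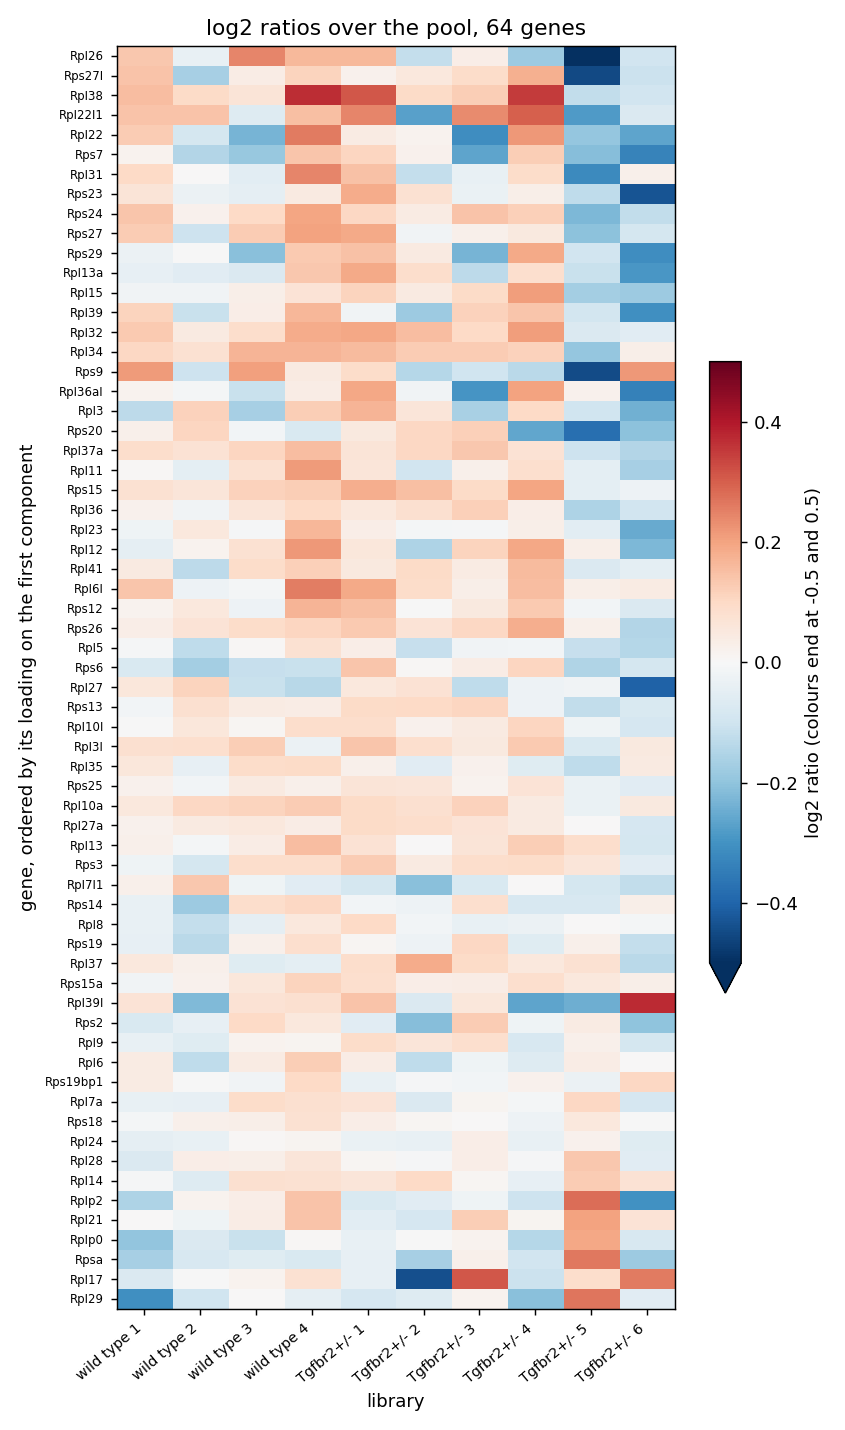
Colours give the log2 ratio over the pool of the 64 genes (rows, ordered by their loading on the first component) in the 10 livers (columns, genotype and replicate), ending at -0.5 and 0.5. Most rows are blue in Tgfbr2+/- replicates 5 and 6 and red in wild-type replicate 4, and a block at the bottom with Rplp0, Rplp2, Rpsa and Rpl29 is red in replicate 5.

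The comparison of 6 Tgfbr2+/- with 4 wild-type livers asks whether losing a copy of the receptor gene goes with other amounts of ribosomal protein mRNA. No member passed the threshold, an adjusted p of 0.05 (limma, Benjamini-Hochberg over all 16383 genes), and neither did any other gene (0%). At an unadjusted p under 0.05 there was 1 member, Rpl7l1, which was lower, against 5.54% of all genes in either direction, 2.57% lower and 2.97% higher. No member had groups that did not overlap, against 1.08% of all genes. The 95% intervals of 63 of the 64 differences lay within 0.5 on the log2 scale, the exception being Rpl26, and their half-widths ran from 0.08 to 0.39 with a median of 0.14. A change smaller than those widths could therefore not be told from 0 with these livers. The intervals are not adjusted for the number of genes, so passing the threshold needed a larger change. Rpl7l1, whose interval excluded 0, had a limma adjusted p of 0.900. In bulk liver, fewer cells of a type and less RNA per cell cannot be told apart.

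The differences leaned to the negative side. They were below 0 for 46 members and above 0 for 18 (28.1%, against 52.6% of all genes), with 47.4% of all genes below 0. The median was -0.02, with quartiles at -0.06 and 0.0013, and over all genes it was 0.0044. The large subunit had 12 of 42 above 0 and the small subunit 6 of 21, each with a median of -0.02. This lean rested on single livers, and with array weights 34 were above 0. Without wild-type replicate 4 the number above 0 was 31 and the median -0.00093, and without Tgfbr2+/- replicate 6 it was 33 and 0.00095. The number was 21 (median -0.02) when the sign of wild-type replicate 1 was turned, and 23 (median -0.0089) when that of Tgfbr2+/- replicate 5 was.

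**Figure D3:**
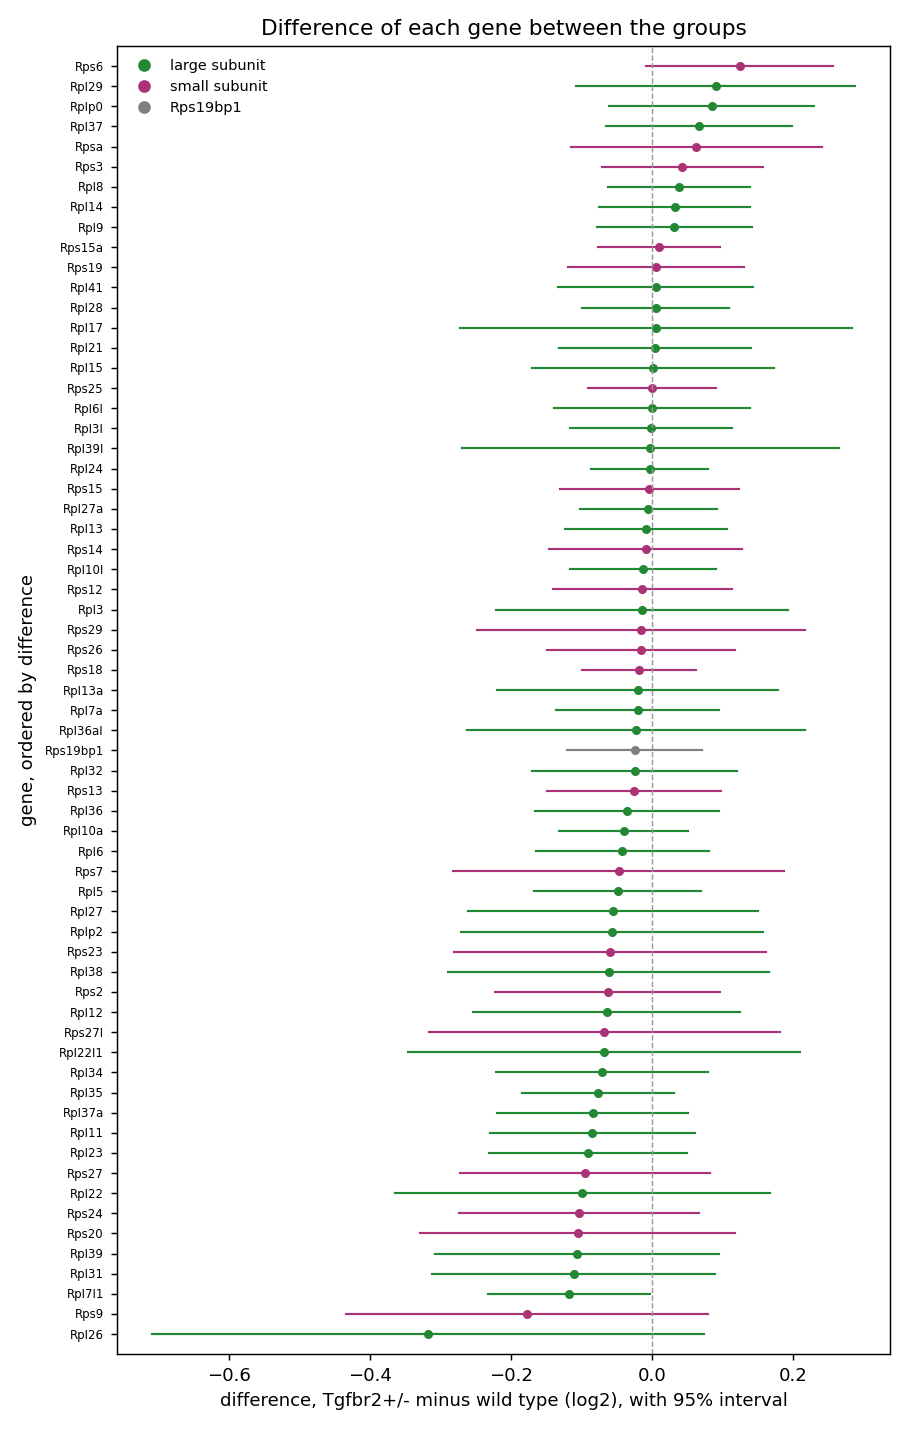
Points give the difference, Tgfbr2+/- minus wild type, on the log2 scale (horizontal axis) for the 64 genes (vertical axis, ordered by difference), with bars for the 95% interval from limma (6 against 4 livers). The differences run from -0.32 for Rpl26 to 0.12 for Rps6, and the interval of Rpl7l1 is the only 1 of 64 that excludes 0.

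Rps6, the small subunit protein that S6 kinases phosphorylate below mTORC1, had the highest difference in the columns as deposited. It was at -0.08, -0.17, -0.11 and -0.11 in the wild-type livers. In Tgfbr2+/- replicates 1 to 6 it was at 0.14, 0.01, 0.04, 0.11, -0.15 and -0.09. Replicates 1 to 4 lay above every wild-type liver, and replicates 5 and 6 within the wild-type range. The difference was 0.12 ± 0.06 (SE; limma adjusted p = 0.917) and was 0.16 without Tgfbr2+/- replicate 5. It was 0.18 with that liver turned in sign and 0.09 with wild-type replicate 1 turned, where Rpl37, also at 0.09, stood just above it. The group means over the pool were -0.12 in wild type and 0.0075 in Tgfbr2+/-.

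Rpsa, the small subunit protein that also serves as the laminin receptor precursor, was at -0.17, -0.08, -0.06 and -0.08 in wild type. It was at -0.04, -0.17, 0.03, -0.10, 0.26 and -0.18 in Tgfbr2+/-, where replicate 5 was the highest of all livers. The difference of 0.06 ± 0.08 (SE) was below its own error. Rps3, at the entry of the mRNA channel, differed by 0.04 ± 0.05 (SE). Rps19, the gene most often mutated in Diamond-Blackfan anaemia, differed by 0.0063 ± 0.06 (SE), and its binding partner Rps19bp1 by -0.02 ± 0.04 (SE).

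Rps9, a small subunit protein also at the mRNA entry, had the second lowest difference in the columns as deposited. It was at 0.21, -0.10, 0.21 and 0.04 in wild type and at 0.09, -0.14, -0.10, -0.14, -0.45 and 0.22 in Tgfbr2+/-. The Tgfbr2+/- values spanned the whole wild-type range, with replicate 6 the highest of all 10 livers and replicate 5 the lowest. The difference was -0.18 ± 0.12 (SE; limma adjusted p = 0.919) and -0.10 without replicate 5. It was -0.03 with replicate 5 turned in sign and -0.07 with wild-type replicate 1 turned. Rps20, of the small subunit head, differed by -0.10 ± 0.10 (SE), by -0.05 without Tgfbr2+/- replicate 5 and by 0.02 with that liver turned.

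The stalk of the large subunit, which recruits the elongation factors, is built from Rplp0 with Rplp1 and Rplp2, of which Rplp1 had no probe used here. Rplp0 was at -0.20, -0.07, -0.11 and 0.01 in wild type, and in Tgfbr2+/- it ran from -0.14 in replicate 4 to 0.19 in replicate 5. Its difference of 0.09 ± 0.07 (SE; limma adjusted p = 0.924) became 0.05 without wild-type replicate 1, 0.04 without Tgfbr2+/- replicate 5, and -0.01 when the sign of the former was turned. Rplp2 was at -0.16, 0.02, 0.03 and 0.14 in wild type and at -0.08, -0.06, -0.02, -0.10, 0.28 and -0.30 in Tgfbr2+/-. The highest and lowest livers for Rplp2 were thus both Tgfbr2+/-, and the difference was -0.06 ± 0.10 (SE). The high value in replicate 5 was seen on 1 of its probes, at 0.65, and not on the other, at -0.09.

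Rpl5 and Rpl11 form a particle with 5S ribosomal RNA that also binds Mdm2, the inhibitor of p53. Rpl11 was at 0.0043, -0.05, 0.08 and 0.21 in wild type and at 0.06, -0.09, 0.03, 0.08, -0.05 and -0.17 in Tgfbr2+/-, with wild-type replicate 4 the highest and Tgfbr2+/- replicate 6 the lowest. Its difference was -0.08 ± 0.07 (SE), and its probes gave -0.07 and -0.10. It was -0.03 without wild-type replicate 4 and -0.06 without Tgfbr2+/- replicate 6. Rpl5 differed by -0.05 ± 0.05 (SE).

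Rpl26, Rpl31, Rpl39 and Rpl17 line or surround the tunnel through which the nascent protein leaves the large subunit. Rpl26, which also binds the p53 mRNA, had the lowest difference and the largest SD over the 10 livers, 0.34. It was at 0.13, -0.04, 0.24 and 0.16 in wild type and at 0.16, -0.12, 0.03, -0.18, -0.95 and -0.10 in Tgfbr2+/-. Apart from replicate 5, far below every other liver, the Tgfbr2+/- values reached into the wild-type range in replicates 1 and 3 only. The difference was -0.32 ± 0.18 (SE; limma adjusted p = 0.917), -0.17 without replicate 5, and -0.0015 with replicate 5 turned in sign.

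Rpl31 differed by -0.11 ± 0.09 (SE), with wild-type replicate 4 highest at 0.24 and Tgfbr2+/- replicate 5 lowest at -0.32. Leaving out either of these livers gave -0.05. The 2 probes of Rpl31 gave -0.17 and -0.05 and correlated at -0.08 across the livers. Rpl39 differed by -0.11 ± 0.09 (SE), with Tgfbr2+/- replicate 6 lowest at -0.31, and by -0.06 without that liver and -0.07 without wild-type replicate 4. Rpl35, also near the tunnel exit, differed by -0.08 ± 0.05 (SE; limma adjusted p = 0.919). Its 2 probes gave -0.13 and -0.02 and correlated at -0.0030. The probes of Rpl17 also disagreed. Its mean ran from -0.44 in Tgfbr2+/- replicate 2 to 0.31 in replicate 3, but 1 of its 3 probes alone spanned -1.26 to 0.89 in these livers, and the difference of its mean was 0.0055 ± 0.13 (SE).

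On the positive side were Rpl29, at 0.09 ± 0.09 (SE), and Rpl37, at 0.07 ± 0.06 (SE), both of the large subunit. Rpl29 was at -0.31 in wild-type replicate 1 and 0.27 in Tgfbr2+/- replicate 5, and between -0.21 and 0.02 in the other 8 livers. Its difference was 0.03 without either of these livers and -0.06 when that wild-type liver was turned in sign. That of Rpl37 was 0.04 without Tgfbr2+/- replicate 2 and 0.11 without replicate 6.

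Rplp0, Rpl13a and Rps18 are widely used as reference genes for quantitative PCR. Rps18 had the smallest SD over the 10 livers of all members, 0.03, with values from -0.02 to 0.07 and a difference of -0.02 ± 0.04 (SE). This is the SD of a mean over 2 probes, which correlated at -0.44 across the livers. Its SD was matched to 2 decimals only by Rpl24, a protein of the bridge between the subunits, which differed by -0.0031 ± 0.04 (SE). Rpl13a, which also acts in a complex that silences inflammatory mRNAs, was at -0.04, -0.06, -0.07 and 0.14 in wild type and at 0.19, 0.09, -0.13, 0.08, -0.11 and -0.29 in Tgfbr2+/-. Its SD of 0.14 was above the median of the members, 0.10, and of all genes, 0.11, and its difference was -0.02 ± 0.09 (SE).

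Of the 64 symbols, 8 mark a relative of a core protein, and with Rps19bp1 these 9 members had 8 differences below 0. Rpl7l1 was at 0.02, 0.13, -0.02 and -0.06 in wild type and at -0.09, -0.21, -0.08, 0.0030, -0.09 and -0.12 in Tgfbr2+/-. All Tgfbr2+/- livers but replicate 4 lay below every wild-type liver. The difference was -0.12 ± 0.05 (SE; limma adjusted p = 0.900). With 1 liver left out, an unadjusted p under 0.05 was kept only without wild-type replicate 4 or without Tgfbr2+/- replicate 4, and it was lost with either doubtful column turned and with array weights. The difference was smallest, -0.08, without wild-type replicate 2.

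Rpl22l1, a paralogue of the RNA-binding Rpl22, differed by -0.07 ± 0.13 (SE) and Rps27l, a p53 target, by -0.07 ± 0.11 (SE). Rpl36al differed by -0.02 ± 0.11 (SE), Rpl10l, known from testis, by -0.01 ± 0.05 (SE) and Rpl39l by -0.0019 ± 0.12 (SE). Rpl3l, the striated muscle form of Rpl3, and the pseudogene Rpl6l differed by less than 0.01. None of these 7 differences exceeded its error. Without these 9 members, which include Rps19bp1, 17 of 55 differences were above 0, with a median of -0.02.

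Over the members, wild-type replicate 1 and Tgfbr2+/- replicate 5 had the lowest of the 45 correlations between livers, at r = -0.64 and rho = -0.60 across 64 genes, which are not independent replicates. Without Rpl26 it was -0.68. The members lay on opposite sides of the pool in these livers for 46 of 64 genes, against 63.4% of all genes. Rpl29, Rplp0, Rpsa and Rplp2 were low in wild-type replicate 1 and high in Tgfbr2+/- replicate 5, and Rps9, Rps27l and Rpl26 were the reverse. These are the columns whose direction is not settled, so the signs of their values are not settled either. Tgfbr2+/- replicate 5 also opposed Tgfbr2+/- replicate 1, at r = -0.42. The highest correlation was 0.59, between wild-type and Tgfbr2+/- replicates 3.

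**Figure D4:**
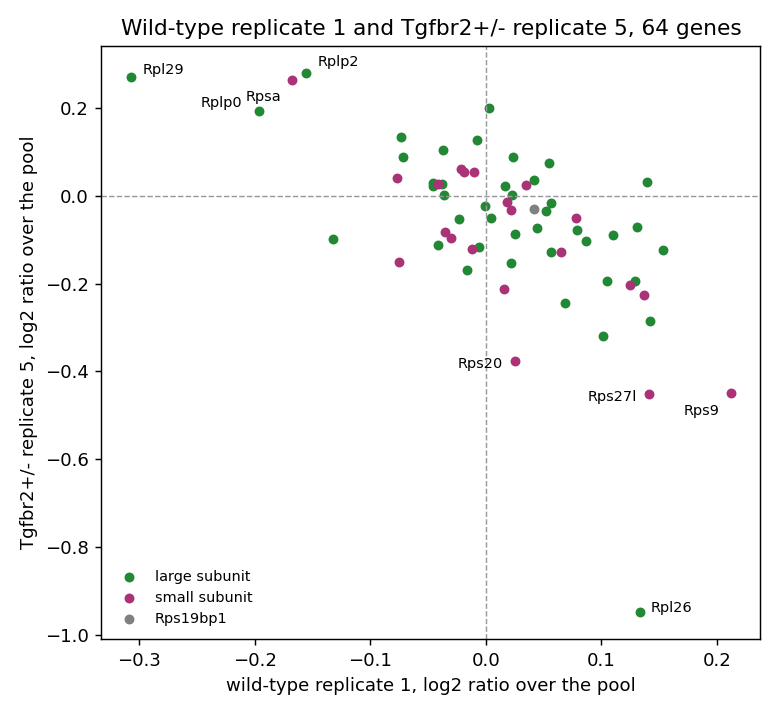
Each point is 1 of the 64 genes, with its log2 ratio over the pool in wild-type replicate 1 (horizontal axis) and Tgfbr2+/- replicate 5 (vertical axis), coloured by subunit. The points run from Rpl29 at the upper left to Rps9, Rps27l and Rpl26 at the lower right, with r = -0.64.

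Probes of a gene did not always follow each other. Of the 22 members with more than 1 probe, 9 had differences of opposite sign (40.9%, against 43.9% of the 1142 such genes in all), as in Rpl17, Rpl21, Rpl24, Rpl6 and Rps23. The probe differences of Rpl6 were -0.16 and 0.07 and those of Rps23 -0.14 and 0.02. Rpl24, whose mean varied least with Rps18, had probes that correlated as low as -0.71 across the 10 livers. In contrast, the probes of Rpl38 correlated at 0.94 or more, those of Rpl32 at 0.91 and those of Rpl11 at 0.81. Over the 22 members the lowest correlation between probes of a gene had a median of 0.04. This median was not computed for all genes, and the share with opposite signs was near that of all genes. Poor agreement of probes is therefore not shown to be particular to the members. Ribosomal protein genes have many processed pseudogenes of near-identical sequence, which a probe can share. The part of shared sequence in these values was not tested.

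The other parts of the translation apparatus gave no called gene, with 0% of all genes called. Of 74 mitochondrial ribosomal protein genes, 36 differences were above 0, with a median of -0.0085, and 1 was higher at an unadjusted p under 0.05, against 2.97% of all genes. Of 27 initiation factors 7 were above 0, with a median of -0.03. Elongation factors and other TOP genes had 6 of 13 above 0 and a median of -0.00083. Here Nme2, a nucleoside diphosphate kinase, was at 0.12 ± 0.09 (SE) and Fau, which encodes ribosomal protein S30 fused to a ubiquitin-like protein, at -0.09 ± 0.07 (SE). Among initiation factors Eif3m was at -0.10 ± 0.06 (SE) and Eif2s2 at -0.07 ± 0.05 (SE).

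Factors of ribosome biogenesis had the lowest median of these translation lists, -0.04, and 9 of 58 above 0, with 4 lower and none higher at an unadjusted p under 0.05 (against 2.57% of all genes lower). Gnl2, a nucleolar GTPase of large subunit assembly, differed by -0.21 ± 0.06 (SE; limma adjusted p = 0.693). Utp20, of the small subunit processome, differed by -0.20 ± 0.07 (SE; limma adjusted p = 0.797). RNA polymerase I and its factors had 7 of 17 above 0 and a median of -0.01, with the subunits Twistnb at -0.15 ± 0.08 (SE) and Polr1b at -0.11 ± 0.07 (SE).

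Regulators of ribosomal protein output had 13 of 23 above 0 and a median of 0.02, with 2 lower at an unadjusted p under 0.05, against 2.57% of all genes. Ddit4, a stress-induced inhibitor of mTORC1, differed by -0.40 ± 0.11 (SE; limma adjusted p = 0.635). Eif4ebp3, a binding protein of the cap factor Eif4e, differed by -1.08 ± 0.44 (SE; limma adjusted p = 0.856), with an SD of 1.25 among the 4 wild-type livers. Neither passed the threshold.

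**Figure D5:**
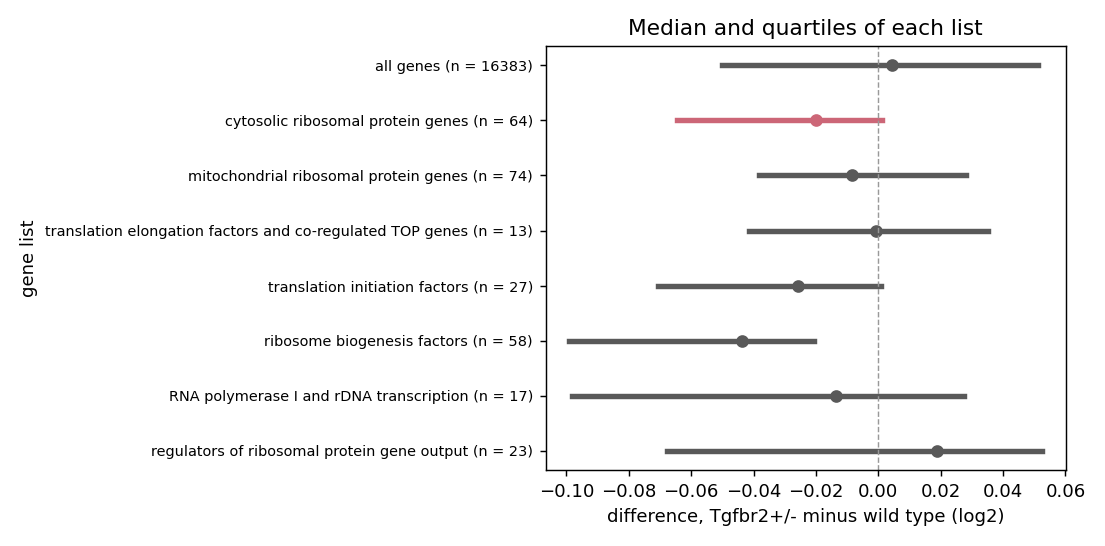
Points give the median and bars the quartiles of the difference, Tgfbr2+/- minus wild type, on the log2 scale (horizontal axis) for each gene list (vertical axis, with its number of genes). All medians lie between -0.04 for ribosome biogenesis and 0.02 for the regulators, beside 0.0044 for all genes.

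In the columns as deposited, markers of other liver cells moved with the groups in 1 case. Of 18 Kupffer cell and macrophage markers, 16 differences were above 0 (52.6% of all genes) and 13 were higher at an unadjusted p under 0.05 (2.97% of all genes), with a median of 0.36 and none past the adjusted threshold. Their mean ran from -0.20 to -0.13 in wild type and from -0.02 to 0.24 in Tgfbr2+/-, without overlap. The other lists overlapped between the groups. The median difference was 0.05 for lymphocyte markers (10 of 15 above 0), -0.07 for erythroid (2 of 6), -0.0058 for endothelial (5 of 11), -0.05 for stellate and fibroblast (4 of 10) and 0.02 for hepatocyte markers (8 of 13). The part of any cell type in the ribosomal protein values was not tested.

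The Tgfbr2+/- livers can also be set against the pool alone, a test blind to the spread of the pool and to dye bias. No member passed the adjusted threshold there, with 0.0122% of all genes called (limma). At an unadjusted p under 0.05 there were 4 of 64, against 18.3% of all genes. Rpl7l1 was lower, at -0.10 ± 0.03 (SE). Rpl10a, at 0.06 ± 0.03 (SE), Rps15, at 0.09 ± 0.04 (SE), and Rpl6l, at 0.09 ± 0.04 (SE), were higher. These 3 were as high in the wild-type livers, where their means over the pool were 0.10, 0.10 and 0.09.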

How the data were processed

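Liver RNA of 10 mice was compared with a wild-type pool on 2-colour arrays. Per the labels' protocols, RNeasy columns and DNase were used for the RNA, which was amplified with an automated aminoallyl MessageAmp II method. The design text states a dye swap. Scanner software, background correction, normalization and the joining of swapped arrays are not given in the sources used here. Deposited values are log10 ratios centred near 0 by the authors (column medians 0.0013 to 0.0047). The base was inferred from 8 values at exactly 2 or -2, a limit of 100-fold. They were multiplied by 3.32 to log2 and averaged per symbol. Of 23438 probes, 17726 had 1 symbol, 50 had several and 5662 had none. Among those left out, 11 probes with several symbols included a ribosomal protein symbol and 10 were named as pseudogenes.

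Groups came from the sample titles and were compared with limma 3.58.1 in R 4.3.3 (lmFit, eBayes, two-sided), with Benjamini-Hochberg adjustment over all 16383 genes and a threshold of 0.05. The p-values measure the spread between these mice. The fit was tested on simulated data. Tgfbr2 was also compared by an exact two-sided permutation test. The members and all lists were chosen with earlier results of these data known. Members were named for known roles (Rplp0, Rplp1, Rplp2, Rpsa, Rps6, Rps19, Rpl13a, Rps3, Rpl5, Rpl11, Rps27a), for the 6 highest and 6 lowest differences, the 4 largest and 2 smallest SDs, the 4 smallest p, and as paralogue-like, giving 28 measured genes. From each translation list the 2 genes of smallest p were named. Other genes were named after their values were seen. Symbols and start regions came from RefSeq tables (GRCm38.p6).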

Additional observations from a re-analysis of the deposited data

Results flagged for a closer look

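For the 28 named members, Tgfbr2 and the members' median, 60 groups of 4 or 6 livers were searched for 1 liver far from the others. In 4 there was one. The limit used gives about 1 in 20 groups by chance, but only for genes not chosen by their values. Some members were named for large SDs or extreme differences in these livers, Rpl26 and Rpl22l1 among them, so the number is not compared with that rate. Rpl26 was at -0.95 in Tgfbr2+/- replicate 5, with the other Tgfbr2+/- livers between -0.18 and 0.16. Rpl13a was at 0.14 in wild-type replicate 4, with the other wild-type livers between -0.07 and -0.04. Rpl22l1 was at -0.065 in wild-type replicate 3, against 0.14 to 0.15 in the others. Rpl39l was at -0.22 in wild-type replicate 2, against 0.07 to 0.08 in the others.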

How the results depend on the processing

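No member passed the threshold in any alternative run, and the lowest adjusted p of a named member was 0.203, against the pool, and 0.492 elsewhere (limma). The number of all genes past the threshold was 0 to 10 with 1 liver left out (10 without Tgfbr2+/- replicate 3) and 2 against the pool. The number of members above 0, 18 as reported, was 14 to 33 with 1 liver left out, 34 with array weights and 36 with the replicate number as a block (median 0.01). With single probes as the unit it was 28 of 93. With livers left out together, an alternative chosen after seeing the data, it was 36 without Tgfbr2+/- replicates 5 and 6. It was 38 without wild-type replicate 4 and Tgfbr2+/- replicate 6. Against the pool the number was 34, but there it counts Tgfbr2+/- means above 0 and not differences from wild type. The median ran from -0.04 to 0.00095 with 1 liver left out. The number of members whose groups did not overlap, 0 as reported, was 0 to 2 with 1 liver left out and 1 with single probes. Without wild-type replicate 2 it was 2 of 64, against 2.72% of all genes. Without Tgfbr2+/- replicate 4 it was 1, against 1.56%, and without wild-type replicate 4 it was 0, against 3.92%. It was 1 without Tgfbr2+/- replicates 5 and 6 and 2 without wild-type replicate 1 and Tgfbr2+/- replicate 5. Against the pool 2 members had all Tgfbr2+/- values on 1 side of 0. For single probes, livers left out together and the pool, the share of all genes is not given here. Those counts are therefore not read as changes in the members.

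Of the 28 named members, 12 had a difference above its SE. Of these Rplp0 turned to -0.013 and Rpl29 to -0.062 with wild-type replicate 1 turned in sign. Rpl29 also turned to -0.032 without wild-type replicate 1 and Tgfbr2+/- replicate 5, and Rps20 to 0.020 with Tgfbr2+/- replicate 5 turned. Against the pool Rplp0 was at -0.0083 and Rpl29 at -0.021. These are Tgfbr2+/- means and not reversals of the difference, as the wild-type means were lower, at -0.09 and -0.11. The other 16 lay below their SE, and 14 of them changed sign in some alternative, 90 times in all, with the means against the pool included. These were not counted as reversals, a rule set after the changes were seen. The cause was not tested.

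The replicate numbers were not taken to pair the livers. Over all genes same-numbered livers deviated from their group means with correlations of 0.09, 0.09, 0.30 and 0.0072, and over the members with 0.47, 0.09, 0.51 and 0.37. In neither case did every pair exceed 0.1 or every wild-type liver correlate best with its own number. Tgfbr2+/- replicates 5 and 6 have no wild-type partner and add nothing to the blocked difference.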
